A study of Sus scrofa with 6 samples.

Results

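Among the proteins that form, hold back or edit circular RNA, 7 genes were followed in brain tissue of wild boar and domestic pig: QKI, MBNL1, ILF2, YTHDC1, ADAR, DHX9 and ADARB1. They were chosen by name from the factors known to act on circular RNA (circRNA), with earlier results of these data known. All 7 were found among the 21280 protein-coding genes of the deposited table. The series holds 6 libraries of total RNA depleted of ribosomal RNA, 3 from wild boars and 3 from Rongchang pigs, a Chinese domestic breed, with 1 library per numbered animal. Each animal was labelled female and 2 years old, and no treatment or genetic change was named. The wild boar libraries were labelled brain, and the Rongchang libraries were labelled cerebrum and marked as a re-analysis of an earlier deposit, while the series title names the prefrontal cortex. Breed, labelled tissue and source of the libraries therefore cannot be told apart in any comparison below.

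A circRNA is a closed loop made when the splicing machinery joins the end of an exon back to the start of the same or an earlier exon, a step called back-splicing. It is favoured when the introns on either side are brought together, by paired inverted repeats or by proteins that bind both introns and dimerize, and it is held back when that pairing is undone. Brain is known as a tissue rich in circRNAs, and also as one in which adenosine-to-inosine editing recodes channel and receptor messages. QKI (quaking), a KH-domain RNA-binding protein abundant in glia, and MBNL1 (muscleblind-like), a zinc-finger splicing regulator, bind flanking introns and promote loops. ILF2 (NF45) is a nuclear factor counted among the promoters of back-splicing, and YTHDC1 is the nuclear reader of N6-methyladenosine (m6A), a mark linked to back-splicing and to export of circRNAs. ADAR (ADAR1) edits double-stranded RNA and DHX9 is a helicase that unwinds it, and loss of either is known to raise circRNA output. ADARB1 (ADAR2) is the main editor of glutamate receptor messages. Its part in back-splicing is less clear, so it was kept apart from both sides.

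The deposited values are TPM, a length-scaled share of all transcripts in a library, so different genes can be compared within a library. The listed genes summed to 17.2% to 31.0% of 1000000 TPM in the wild boar libraries and 23.5% to 40.9% in the domestic pig libraries, so a shift in the rest of a library moves every listed gene. Results are therefore given on deposited TPM and after a median-ratio rescaling between libraries, which moved the median log2 difference of all 11752 tested genes from -0.41 to 0.00 (wild boar minus domestic pig, here and below). The libraries held 33509 to 72713 back-splice reads each, recovered from the TPM steps. Summed levels of neuron, astrocyte and oligodendrocyte markers were high in each library. The 4 neuron markers summed to 710 to 1827 TPM in wild boar and 1257 to 2268 TPM in domestic pig. SNAP25, STMN2 and SYT1 made nearly all of this, and RBFOX3 was low, at 1.63 to 3.51 TPM. After rescaling RBFOX3 lay higher in wild boar without overlap (0.42, limma adjusted p = 0.0524), while SNAP25, STMN2 and SYT1 overlapped. Some markers of other cells moved with the groups. After rescaling the sums of the microglia, choroid plexus and ependyma, and cerebellum markers overlapped. After rescaling, the 3 red blood cell markers summed to 446 to 1311 TPM in wild boar and 86.5 to 226 in domestic pig, with 3 of 3 passing as higher. The 4 mural and fibroblast markers summed to 24.9 to 53.7 and 14.9 to 21.9 (2 of 4 passing as higher), and the 3 endothelial markers to 19.4 to 30.5 and 12.9 to 13.8 (1 of 3), with 1 of 3 microglia markers passing as well. SLC17A6, a glutamate transporter of subcortical neurons, stood at 2.52 to 4.64 TPM in wild boar and 7.71 to 9.70 in domestic pig. It passed as lower after rescaling (-1.16, limma adjusted p = 0.00736) and as deposited (-1.57, limma adjusted p = 0.00738). The 3 markers of cortical glutamatergic neurons summed to 62.1 to 71.5 TPM in wild boar and 46.6 to 58.7 in domestic pig, with SLC17A7 passing as higher (0.80, limma adjusted p = 0.0284) and NEUROD6 as lower (-0.60, limma adjusted p = 0.0468). No marker named here was at 0 in any library. Their part in the results below was not tested.

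The order of the 7 levels was stable at its ends and mixed in the middle. QKI was the most abundant in every library, with a mean deposited level over the 6 libraries of 184 TPM. ILF2, MBNL1, DHX9 and YTHDC1 followed, with means of 37.4, 30.4, 29.5 and 28.8 TPM. These 4 changed places from library to library, so their order does not stand beyond the spread. ADAR, at a mean of 9.15 TPM, and ADARB1, at 6.47 TPM, came last in that order in all 6 libraries. The promoters of circularization were thus present at higher message levels than ADAR in each library. DHX9 lay among them in wild boar 1 to 3 and domestic pig 2, and below each of them in domestic pig 1 and 3.

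On deposited TPM, 0 of the 7 genes passed limma's test at an adjusted p under 0.05, where 1.60% of all tested genes passed (0.136% higher and 1.46% lower). MBNL1 and YTHDC1 had an unadjusted p under 0.05, as 17.8% of all genes did. There were 6 differences below 0, and 88% of all genes lay there too. YTHDC1 was the single member whose groups did not overlap, where 17.1% of all genes were lower in wild boar without overlap. The median difference of the 7 was -0.62, against -0.41 for all genes.

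After rescaling, 2 of the 7 passed: ADARB1 rose and YTHDC1 fell in wild boar relative to other genes, and 5 did not pass. An unadjusted p under 0.05 was reached by 4 of the 7, as by 36.9% of all genes. Of all tested genes 19.6% passed on that scale, 8.59% higher and 11.0% lower, so the count of 2 does not set the 7 apart from the table. The median difference of the 7 was -0.14, against 0.00 for all genes. In bulk tissue a lower share of the cells that express a gene and less of its RNA per cell cannot be told apart.

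**Figure D1:**
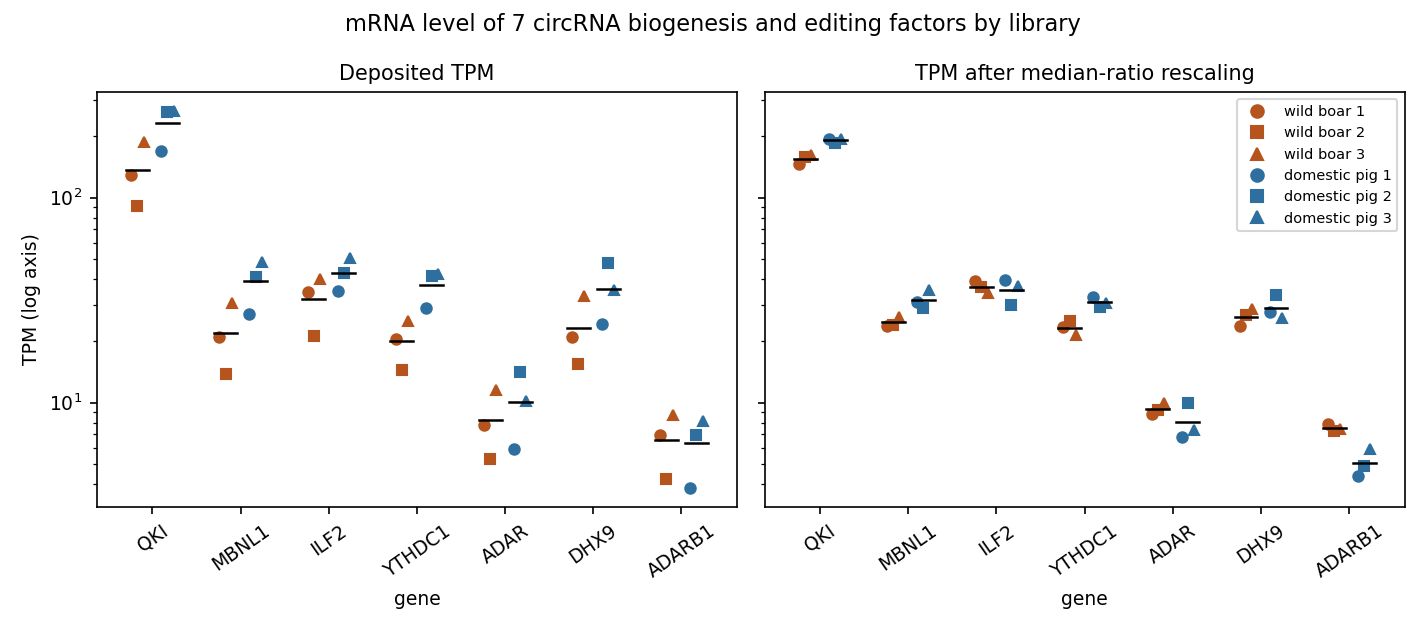
TPM of the 7 genes in each library (log axis), as deposited on the left and after median-ratio rescaling on the right; points are libraries and black lines are group means (n = 3). On the deposited scale 6 of the 7 genes have overlapping groups, and on the rescaled scale QKI, MBNL1 and YTHDC1 lie lower and ADARB1 higher in wild boar without overlap.

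Among the promoters, QKI was at 129, 91.5 and 188 TPM in wild boar 1 to 3 and at 170, 262 and 265 TPM in domestic pig 1 to 3, as deposited. Wild boar 2 was lowest and the groups overlapped, with wild boar 3 above domestic pig 1. After rescaling QKI was at 146, 158 and 161 TPM in wild boar and at 193, 184 and 193 TPM in domestic pig. All 3 wild boar values then lay under all 3 domestic pig values, a pattern that 22.5% of all genes showed on that scale. The log2 difference was -0.80 (SE 0.41, limma adjusted p = 0.287) as deposited and -0.29 (SE 0.13, limma adjusted p = 0.128) after rescaling. With quantile scaling QKI passed, at -0.50 (limma adjusted p = 0.0306).

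MBNL1 was at 20.9, 13.9 and 30.6 TPM in wild boar 1 to 3 and at 27.0, 41.2 and 48.8 TPM in domestic pig 1 to 3, as deposited. Wild boar 3 again lay above domestic pig 1. Rescaled levels were 23.7, 24.0 and 26.2 TPM in wild boar and 30.8, 29.0 and 35.5 TPM in domestic pig, with no overlap. The difference after rescaling was -0.35 (SE 0.11, limma adjusted p = 0.0602). It missed the threshold, and it passed with quantile scaling (limma adjusted p = 0.0456) and without domestic pig 2 (limma adjusted p = 0.0414).

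YTHDC1, the nuclear m6A reader, was at 20.6, 14.4 and 25.1 TPM in wild boar 1 to 3 and at 28.8, 41.5 and 42.2 TPM in domestic pig 1 to 3, as deposited. Every wild boar value lay below every domestic pig value. The same held after rescaling, at 23.3, 24.9 and 21.5 TPM in wild boar and 32.9, 29.2 and 30.7 TPM in domestic pig. The log2 difference was -0.89 (SE 0.42, limma adjusted p = 0.257) as deposited and -0.40 (SE 0.11, 95% interval -0.64 to -0.16, limma adjusted p = 0.0353) after rescaling. That call was lost when any library other than domestic pig 2 was left out, with limma adjusted p = 0.103 without domestic pig 1, 0.0758 without domestic pig 3, 0.0932 without wild boar 1, 0.0634 without wild boar 2 and 0.112 without wild boar 3. It was also lost with an equal protein-coding sum in each library (limma adjusted p = 0.0683). The difference itself stayed between -0.44 and -0.35 over the 6 runs without 1 library.

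ILF2 was at 34.6, 21.1 and 40.2 TPM in wild boar 1 to 3 and at 34.9, 42.8 and 50.8 TPM in domestic pig 1 to 3, as deposited. The groups overlapped. Rescaled levels of 39.3, 36.6 and 34.4 TPM in wild boar lay within the domestic pig range of 30.1 to 39.8 TPM. The difference was -0.44 (95% interval -1.27 to 0.39) as deposited and 0.05 (95% interval -0.24 to 0.35, limma adjusted p = 0.809) after rescaling, so its direction depends on the scaling.

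On the inhibiting side, ADAR was at 7.80, 5.31 and 11.6 TPM in wild boar 1 to 3 and at 5.97, 14.1 and 10.1 TPM in domestic pig 1 to 3, as deposited. Wild boar 2 was the lowest library and domestic pig 2 the highest, and the groups overlapped. After rescaling ADAR was at 8.83, 9.19 and 9.91 TPM in wild boar and at 6.81, 9.95 and 7.38 TPM in domestic pig. Domestic pig 2 was again the highest library. The difference was -0.25 (95% interval -1.05 to 0.55, limma adjusted p = 0.730) as deposited and 0.20 (95% interval -0.12 to 0.52, limma adjusted p = 0.326) after rescaling, so the direction of ADAR also depends on the scaling.

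DHX9 was at 20.9, 15.4 and 33.3 TPM in wild boar 1 to 3 and at 24.3, 47.8 and 35.5 TPM in domestic pig 1 to 3, as deposited. Here too the groups overlapped and domestic pig 2 was highest. The difference was -0.62 (95% interval -1.45 to 0.21, limma adjusted p = 0.404) as deposited and -0.14 (95% interval -0.43 to 0.16, limma adjusted p = 0.487) after rescaling. These intervals leave room for a difference of either sign.

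The editor ADARB1 had the highest log2 difference of the 7 genes on both scalings, close to 0 as deposited. As deposited it was at 6.94, 4.23 and 8.66 TPM in wild boar 1 to 3 and at 3.84, 6.95 and 8.18 TPM in domestic pig 1 to 3, with overlapping groups and a log2 difference of 0.06 (SE 0.39, limma adjusted p = 0.940). After rescaling it was at 7.86, 7.31 and 7.42 TPM in wild boar and at 4.38, 4.89 and 5.95 TPM in domestic pig. All wild boar values then lay above all domestic pig values, as for 19.2% of all genes. The rescaled difference was 0.50 (SE 0.12, 95% interval 0.22 to 0.77, limma adjusted p = 0.0268), higher than for 92% of all tested genes. The call held without domestic pig 2 or 3. It was lost without domestic pig 1 (limma adjusted p = 0.0848) or wild boar 1, 2 or 3 (0.0813, 0.0696 and 0.0739), and with an equal protein-coding sum (limma adjusted p = 0.0556). The difference stayed between 0.41 and 0.60 in those 6 runs.

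**Figure D2:**
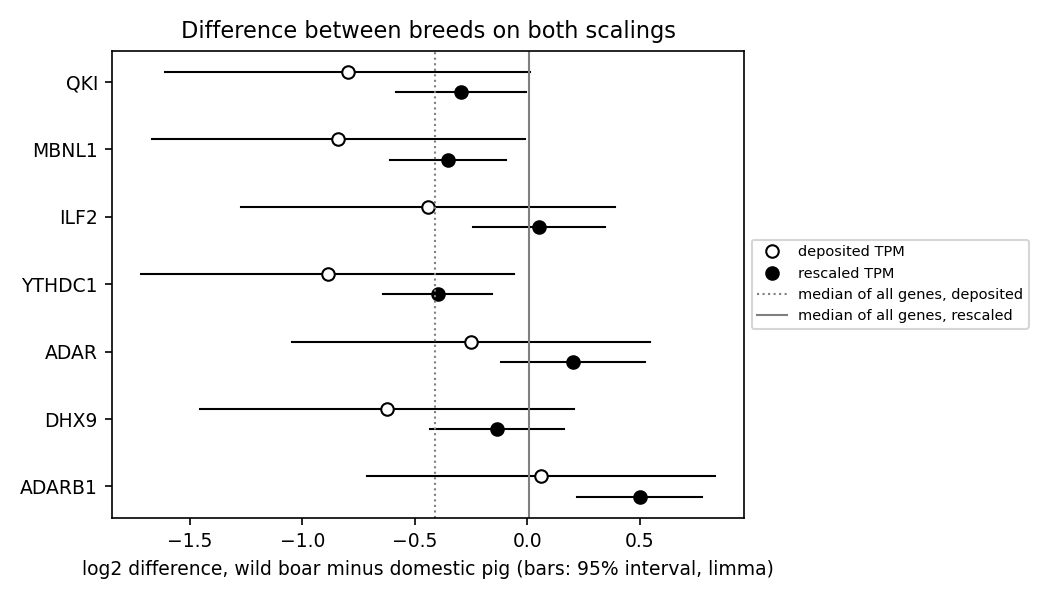
Log2 difference of each gene between wild boar and domestic pig on log2(TPM + 1), with limma's 95% interval, as deposited (open) and rescaled (filled); grey lines mark the median of all 11752 genes. Rescaling moves each point to the right by about the shift of all genes and narrows the intervals, and the rescaled intervals of MBNL1, YTHDC1, QKI and ADARB1 lie on one side of 0, of which YTHDC1 and ADARB1 passed after adjustment.

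The place of a gene among the 11752 tested genes of its own library does not depend on the scaling. ADARB1 stood at percentile 55.6, 53.6 and 53.8 in wild boar 1 to 3 and at 37.9, 39.7 and 47.6 in domestic pig 1 to 3. YTHDC1 stood at 84.4, 85.6 and 82.6 in wild boar and at 89.2, 88.4 and 88.4 in domestic pig. MBNL1 stood at 84.7 to 86.0 in wild boar and 88.3 to 90.3 in domestic pig, and QKI at 98.2 to 98.4 and 98.7 to 99.0. For these 4 genes the groups did not overlap, as for 41.8% of all tested genes on this measure. ILF2, ADAR and DHX9 overlapped, at 89.8 to 91.3 against 88.9 to 91.5, at 59.3 to 62.9 against 51.4 to 62.1, and at 84.7 to 87.4 against 85.8 to 90.4.

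Ratios of 2 members within a library are also free of the scaling between libraries. Of the 21 ratios, 12 did not overlap between the groups, as did 39.7% of the ratios over all pairs of tested genes. ADARB1 took part in 5 of these, and for 60.4% of all other genes the ratio to ADARB1 did not overlap either. That share was 48.2% for ratios to QKI, 48.3% for MBNL1, 53.6% for YTHDC1 and 32.9% for ADAR. There were 18.5, 21.7 and 21.7 QKI transcripts per ADARB1 transcript in wild boar 1 to 3, against 44.2, 37.7 and 32.4 in domestic pig 1 to 3. YTHDC1 stood at 2.96, 3.41 and 2.90 times ADARB1 in wild boar against 7.52, 5.97 and 5.16 times in domestic pig. The ratio of ADAR to ADARB1, the 2 catalytic editors, was 1.12, 1.26 and 1.34 in wild boar against 1.56, 2.03 and 1.24 in domestic pig, which overlapped. Among the promoters QKI, MBNL1 and YTHDC1 kept overlapping ratios to one another, and each was lower relative to ILF2 in wild boar without overlap. For ILF2, 32.9% of all genes had a ratio that did not overlap. Between promoters and inhibitors, QKI stood at 16.5, 17.2 and 16.2 times ADAR in wild boar against 28.4, 18.5 and 26.2 times in domestic pig. QKI, MBNL1 and YTHDC1 were each lower relative to ADAR in wild boar without overlap, with log2 differences of -0.52, -0.59 and -0.64, while their ratios to DHX9 and both ratios of ILF2 to the inhibitors overlapped. The ratio of ADAR to DHX9, both inhibitors, was 0.374, 0.344 and 0.348 in wild boar against 0.246, 0.295 and 0.286 in domestic pig, also without overlap, as were the ratios of 32.0% of all genes to DHX9.

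Promoters were then set against inhibitors. QKI, MBNL1, ILF2 and YTHDC1 together made 205, 141 and 284 TPM in wild boar 1 to 3 and 260, 387 and 407 TPM in domestic pig 1 to 3. ADAR and DHX9 together made 28.7, 20.7 and 44.9 TPM in wild boar and 30.3, 62.0 and 45.6 TPM in domestic pig. The promoter sum was 7.14, 6.79 and 6.33 times the inhibitor sum in wild boar and 8.60, 6.25 and 8.92 times in domestic pig. Domestic pig 1 and 3 lay above the wild boar libraries and domestic pig 2, the library of highest DHX9 and ADAR, lay below them. On the log2 scale wild boar averaged 2.75 ± 0.09 against 2.97 ± 0.28 for domestic pig (SD, n = 3 per breed), a difference of -0.21. This score over chosen genes was not tested, and its groups overlapped under each of the other definitions tried. QKI made 62.8% to 67.6% of the promoter sum in the 6 libraries, so the sum mostly follows QKI; without it the difference was -0.16.

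**Figure D3:**
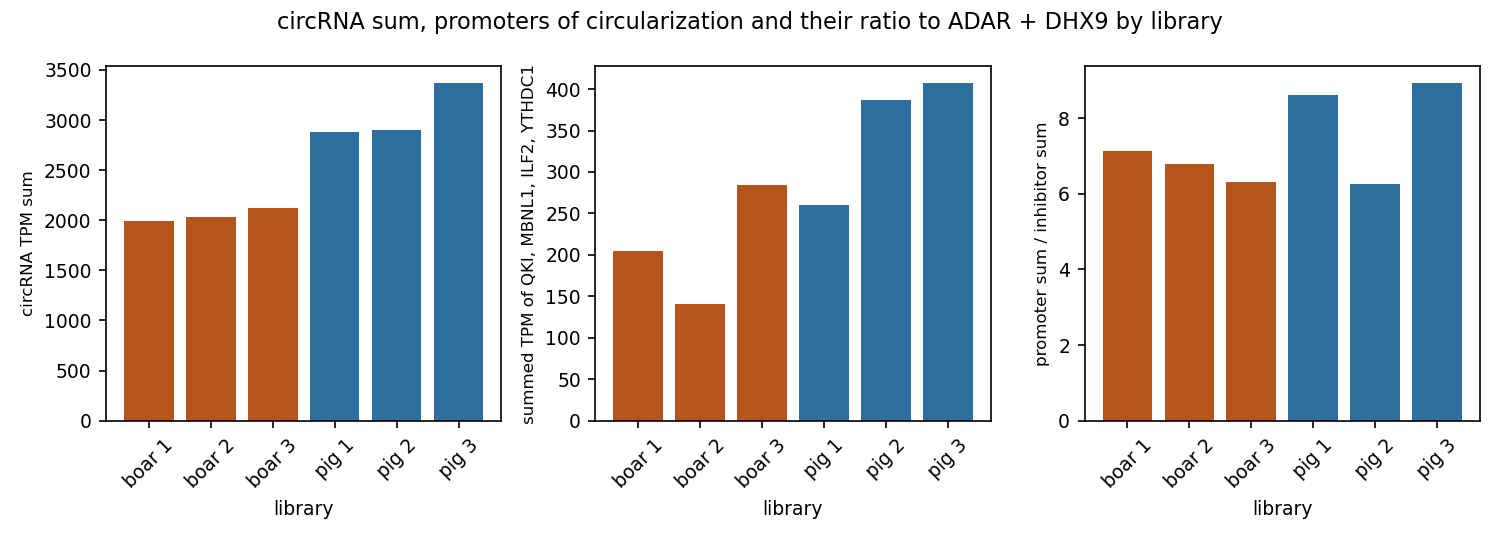
Bars give, for each library, the summed TPM of all circRNAs, the summed TPM of the 4 promoters and the ratio of that sum to the sum of ADAR and DHX9. The circRNA sum separates the 3 wild boar libraries from the 3 domestic pig libraries, whereas the promoter sum and the ratio overlap.

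The circRNA table gives the output beside these factors. All deposited circRNAs together summed to 1994, 2029 and 2121 TPM in wild boar 1 to 3 and to 2880, 2900 and 3367 TPM in domestic pig 1 to 3. Every wild boar sum lay below every domestic pig sum (exact two-sided permutation p = 0.1, the smallest that 3 against 3 allows). Within wild boar the deposited circRNA sum differed by 1.06-fold between the lowest and highest library. Deposited QKI differed by 2.05-fold, MBNL1 by 2.20-fold, ILF2 by 1.90-fold and YTHDC1 by 1.74-fold. ADAR, DHX9 and ADARB1 differed by 2.18-fold, 2.16-fold and 2.05-fold there. The deposited levels of the 7 genes in wild boar ordered the libraries as the protein-coding sum did, with wild boar 2 lowest and wild boar 3 highest, at 17.2% and 31.0% of 1000000. Wild boar 2 had the lowest promoter sum of all 6 libraries but a circRNA sum between those of wild boar 1 and 3. Divided by the factor of the gene table, the circRNA sum was 2259, 3510 and 1817 in wild boar. In domestic pig it was 3285, 2041 and 2450, so the groups then overlapped. Within wild boar this divided sum differed by 1.93-fold. Rescaled QKI, MBNL1, ILF2 and YTHDC1 differed by 1.10-fold, 1.11-fold, 1.14-fold and 1.16-fold there. Rescaled ADAR, DHX9 and ADARB1 differed by 1.12-fold, 1.21-fold and 1.08-fold. Whether the circRNA sum or the 7 genes varied more within wild boar thus depends on the scaling. The rescaling is built to level typical genes, and dividing by its factor carries the factor's spread into the circRNA sum. This contrast therefore largely follows from the method and does not show which of them varied more. With the circRNA sums falling into separate groups, no correlation with a gene's level over the 6 libraries was computed.

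CircRNAs made from the 7 genes themselves were looked up by position, and 4 of the genes hosted 7 of the 11375 deposited circRNAs: QKI 3, YTHDC1 2, MBNL1 1 and DHX9 1. ILF2, ADAR and ADARB1 hosted 0 in the table. The 7 circRNAs held 532 recovered back-splice reads over the 6 libraries, of which 94.7% came from QKI. Of 9709 tested circRNAs 13 (0.134%) passed limma's test as deposited. None of the 6 member circRNAs tested did, and 0 of those had an unadjusted p under 0.05, against 14.5% of all tested. The remaining one, from YTHDC1, was found in 1 library.

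The main QKI circRNA (ssc_circ_668, chromosome 1, 4775755 to 4843415, minus strand) ranked 56th by mean TPM among all circRNAs of the table. Coordinates are those of the deposited table counted from 1, and the genome build was not given in the sources used here. It was at 3.63, 2.44 and 3.85 TPM in wild boar 1 to 3, from 59, 64 and 51 reads, and at 4.46, 3.44 and 5.43 TPM in domestic pig 1 to 3, from 93, 48 and 93 reads. The groups overlapped, and the log2 difference on log2(TPM + 0.045) was -0.42 (SE 0.28, 95% interval -1.02 to 0.17, limma adjusted p = 0.506).

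The second QKI circRNA (ssc_circ_669, 4822372 to 4843415) ends at the same position as the main one. It was at 1.24, 1.07 and 1.76 TPM in wild boar, from 13, 18 and 15 reads, and at 0.895, 1.11 and 0.816 TPM in domestic pig, from 12, 10 and 9 reads. Its difference was 0.49 (SE 0.35, 95% interval -0.25 to 1.23, limma adjusted p = 0.538). The third (ssc_circ_667, 4775755 to 4822488) starts where the main one starts and had 1 to 6 reads per library. The shorter pair overlap by 117 bases, the stretch from 4822372 to 4822488, and together they cover the span of the main one. From the reads behind each TPM, their lengths stand in the ratio 1.55 to 1 for the main against the second and 1.00 to 1 for the third against the second. If the main loop holds just the exons of the other pair, and the overlap is a single exon, these ratios give lengths of 404, 260 and 261 bases.

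Relative to the main QKI circRNA, the second stood higher in each wild boar library than in any domestic pig library. It stood at 34.2%, 43.7% and 45.7% of the main one's TPM in wild boar 1 to 3 and at 20.0%, 32.4% and 15.0% in domestic pig 1 to 3. The groups did not overlap (exact two-sided permutation p = 0.1, the smallest possible with n = 3 each). This ratio was singled out after its values were seen, and no share over other circRNA pairs is given beside it. As a share of the reads of both, the second made 18.1% (exact 95% binomial interval 9.98% to 28.9%), 22.0% (13.6% to 32.5%) and 22.7% (13.3% to 34.7%) in wild boar. In domestic pig the shares were 11.4% (6.05% to 19.1%), 17.2% (8.59% to 29.4%) and 8.82% (4.11% to 16.1%). The intervals of single libraries overlap between the groups, and they cover counting error only.

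**Figure D4:**
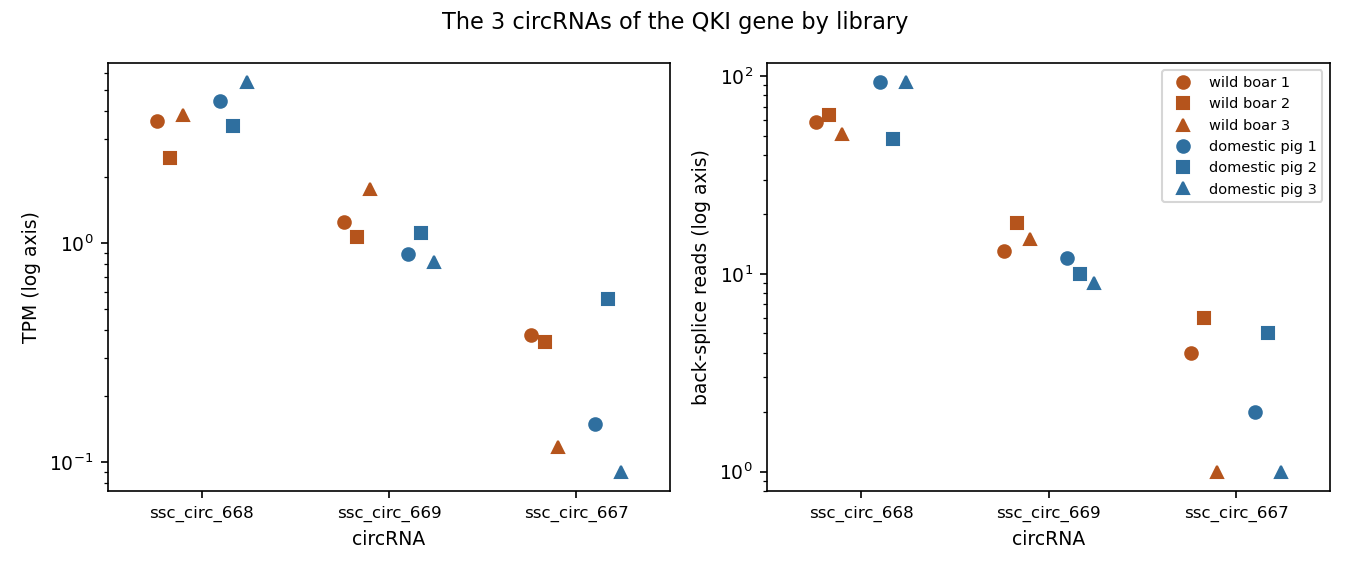
The 3 QKI circRNAs in each library, as TPM on the left and as recovered back-splice reads on the right (both log axes). The main loop lies at 2.44 to 5.43 TPM and the second at 0.816 to 1.76 TPM, and the third rests on 1 to 6 reads per library.

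The other member circRNAs were close to the limit of detection. The MBNL1 circRNA (ssc_circ_3975, chromosome 13, 92652259 to 92662887, plus strand) had 1, 2 and 0 reads in wild boar against 5, 0 and 1 in domestic pig. The DHX9 circRNA (ssc_circ_8258, chromosome 9, 124157643 to 124171991, plus strand) had 4, 2 and 0 reads in wild boar against 1, 1 and 0 in domestic pig. The YTHDC1 circRNA found in several libraries (ssc_circ_6836, chromosome 8, 66097847 to 66112458, plus strand) had 2, 0 and 0 reads in wild boar against 4, 1 and 1 in domestic pig. The other (ssc_circ_10040, chromosome 8, 66104413 to 66107879, plus strand) was found in domestic pig 2 alone, at 0.186 TPM. Where 0 reads were found, as many as 3 remain possible, which is between 0.00413% and 0.00895% of the library's recovered back-splice reads, so no difference between breeds was detectable for these at this depth.

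The close relatives MBNL2, ADARB2 and MBNL3 were examined with the members. After rescaling MBNL2 was at 39.3, 46.7 and 45.3 TPM in wild boar against 45.3, 49.5 and 57.8 TPM in domestic pig, above MBNL1 in each library, with a difference of -0.21 (95% interval -0.50 to 0.09, limma adjusted p = 0.276). ADARB2, a brain relative of the editors without known catalytic activity, was low at 0.987 to 1.55 TPM, with a difference of 0.18 (95% interval -0.09 to 0.45). MBNL3 reached 1 TPM in 1 library and was not tested.

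Other genes of these pathways came from 6 lists with 72 tested genes in all. After rescaling 3 of the 72 were higher and 6 lower in wild boar, or 12.5% passing, against 19.6% of all genes; as deposited 1 passed, against 1.60%. Among 13 tested back-splicing factors 1 rose and 2 fell after rescaling, with a list median of -0.03. SRSF11, a splicing regulator of the SR-related family, fell most, from 50.0, 46.6 and 44.7 TPM in domestic pig to 21.0, 19.4 and 21.4 TPM in wild boar (rescaled log2 difference -1.15, SE 0.10, limma adjusted p = 0.00167). It was also the gene that passed as deposited, by -1.64 (limma adjusted p = 0.0126), and there it missed the threshold without wild boar 1, domestic pig 2 or domestic pig 3 (highest adjusted p = 0.376). SFPQ, a paraspeckle protein linked to circRNAs of long introns, fell by 0.70 on the log2 scale. NOVA2, a neuronal splicing factor, rose by 0.73.

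Of 15 tested genes that write, erase or read m6A, YTHDC2 and METTL14 fell and ALKBH5 rose after rescaling, with a list median of -0.18. YTHDC2, a helicase with a YTH domain, was at 13.9, 11.1 and 12.8 TPM in wild boar and at 20.4, 20.8 and 19.8 TPM in domestic pig (rescaled log2 difference -0.65, SE 0.11, limma adjusted p = 0.00875). ALKBH5, which removes the mark, was at 17.8, 16.7 and 16.1 TPM in wild boar and at 12.2, 10.2 and 11.2 TPM in domestic pig (0.55, SE 0.11, limma adjusted p = 0.0134). METTL14, a subunit of the writer, fell by 0.46 on the log2 scale. These 3 of 15 compare with 19.6% of all genes passing, and the other 12 did not pass. The catalytic writer METTL3 was at -0.25 (limma adjusted p = 0.136).

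Among 7 tested regulators of editing AIMP2, known to lower ADAR protein, rose by 0.44 (limma adjusted p = 0.0492) and 6 did not pass; the list median was 0.18. Of 10 tested genes of the sensing of double-stranded RNA and the interferon response, which editing by ADAR is known to hold down, RIGI, a sensor, fell by 0.36 on the log2 scale (limma adjusted p = 0.0470) and 9 did not pass, with a list median of 0.01. Of 7 tested genes of circRNA export and decay 0 passed limma's test (1 at an unadjusted p under 0.05), with a list median of -0.02. Of 20 tested messages known as substrates of the ADAR enzymes, GRIA4, an AMPA receptor subunit, fell by 0.55 on the log2 scale (limma adjusted p = 0.0370) and 19 did not pass, with a list median of -0.08. These are levels of the substrate messages, and editing itself was not measured here. Beside these counts after rescaling, 19.6% of all genes passed and 36.9% had an unadjusted p under 0.05, so 1 call does not set a list apart. As deposited 0 of the 59 tested genes of the lists other than back-splicing passed limma's test, and 11 had an unadjusted p under 0.05. Of all genes 1.60% passed as deposited and 17.8% had an unadjusted p under 0.05. SRSF11, YTHDC2 and ALKBH5 passed after rescaling whichever library was left out. SFPQ passed in 2 of those 6 runs (highest adjusted p = 0.0644), and METTL14, NOVA2, AIMP2, RIGI and GRIA4 each passed in 1, with highest adjusted p of 0.0718, 0.132, 0.141, 0.123 and 0.111.

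**Figure D5:**
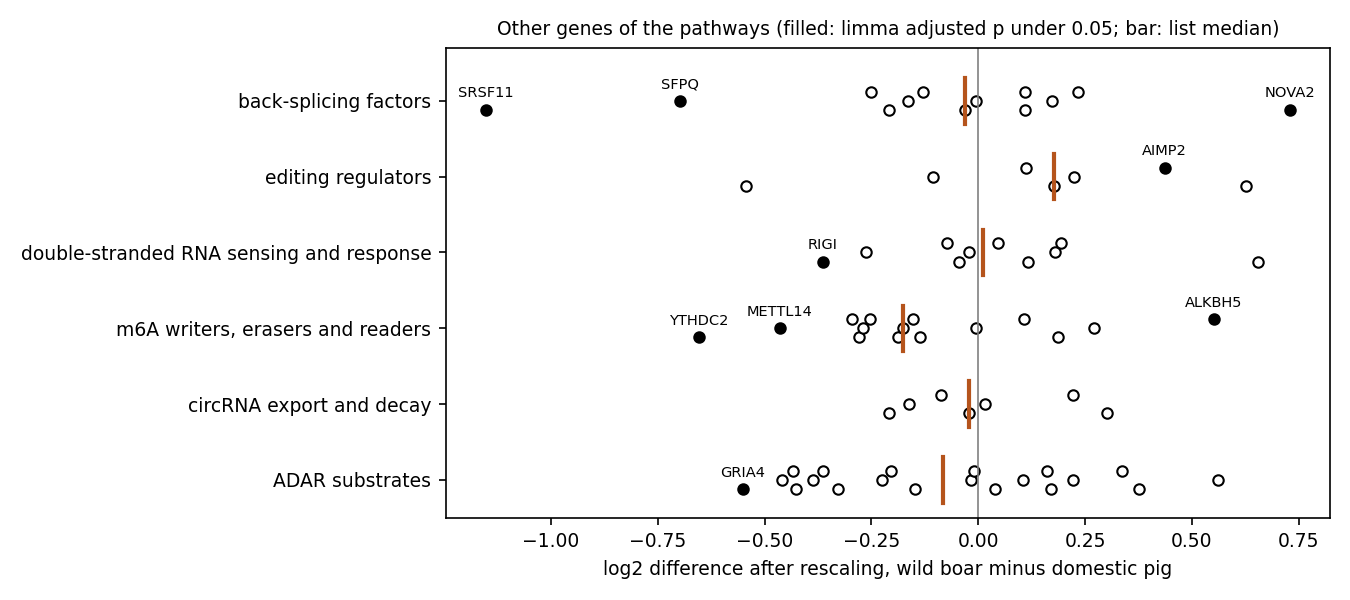
Rescaled log2 difference of each tested gene of the 6 lists; filled points passed limma's test at an adjusted p under 0.05 and the vertical bar is the list's median. Most genes lie within 0.5 of 0 on either side, and 3 filled points are higher and 6 lower in wild boar.

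The genes whose rescaled levels ran most alike with each member over the 6 libraries were taken from 6465 candidates with a symbol and a mean of at least 5 TPM. They share libraries and scaling with the member, and among so many candidates high values arise readily, so Pearson's r is given as a description. For YTHDC1 these were NME6 and CCDC191 (r = 0.999 and 0.999 over 6 libraries), and for ADARB1 they were FBXO31 and NAT8L (0.998 and 0.997). ADAR ran with NCAM1 and KCNA2 (0.999 and 0.997). QKI ran with EXOSC9 and RHOU (0.994 and 0.992), MBNL1 with CTNNA2 and SSBP1 (0.996 and 0.988), ILF2 with TMEM237 and NOPCHAP1 (0.995 and 0.993), and DHX9 with SNX9 and SLC1A2 (0.986 and 0.981).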

How the data were processed

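Stranded libraries were prepared from Trizol-extracted RNA after removal of ribosomal RNA, per the labels' protocols. The authors deposited TPM of protein-coding genes and TPM of circRNAs, 1 column per library, and 0 other columns of per-sample values were left unused. STAR (2.6.0c) and BWA (0.7.17) are listed, with no role, per the submitters' processing notes; the counter, circRNA caller, annotation, strand setting and genome build are not given in the sources used here. Of 21280 gene identifiers 14821 matched a symbol, among them all 7 members. No reads or sequences were used here.

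Genes with at least 1 TPM in at least 3 libraries (11752, all 7 members included) were tested on log2(TPM + 1), and circRNAs present in 3 or more libraries on log2(TPM + 0.045), with limma 3.58.1 (mean-variance trend, R 4.3.3), two-sided, with Benjamini-Hochberg adjustment over all features and a threshold of 0.05. Fold changes on these scales understate changes of low genes. As deposited, limma's variance estimates came from all genes pooled along the trend, so those SE do not measure one gene's own spread. Rescaling divided each library by its median ratio to the geometric mean over genes above 1 TPM in all libraries; the wild boar factors were -0.18, -0.79 and 0.22 (log2, libraries 1 to 3) and those of domestic pig -0.19, 0.51 and 0.46. Single values were compared with exact permutation tests. The limma tests were also run on simulated data with known changes and independent noise for each gene. No shift shared by all genes of a library was simulated, so that run cannot show how the tests behave under such shifts.

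Gene TPM keeps no depth. For circRNAs, TPM ratios between libraries gave whole back-splice reads for 11375 of 11375 circRNAs within a relative tolerance of 1e-05. The smallest whole solution is given, raised to reach 3 reads in a library for 760 circRNAs, so reads are a lower bound for the rest. Host genes were assigned by position and name with RefSeq genes of Sscrofa11.1; 98.52% of circRNAs lay inside a protein-coding gene, against 40.66% after a shift of 1000000 bases.

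The named genes were the 7 members, their close relatives (1 of which is not reported here), up to 4 passing genes per direction and list, the 2 most similar genes per member and the 2 most abundant circRNAs per member. METTL3, the markers and the third QKI circRNA were named outside that rule after its values were seen. Members, lists and this rule were chosen with earlier results of these data known. Alternatives covered the pseudocount, the filter, 2 other scalings, the variance trend, a replicate block, other definitions of promoters and inhibitors, and leaving out each library.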

Additional observations from a re-analysis of the deposited data

How the results depend on the processing

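TPM without depth, 3 libraries a group and a shift of all genes between scalings limit these results; the cause of the changes below was not tested except where the setting itself gives it. Against 188 genes passing as deposited, 1146 passed with an equal protein-coding sum, 2368 with quantile scaling, 6 without the filter, 285 without the variance trend and 58 to 665 without 1 library. Against 2303 after rescaling, 1146 passed with an equal protein-coding sum and 781 to 2204 without 1 library. Against 13 circRNAs, 2 passed after rescaling, 6 without the filter, 29 with a pseudocount of 0.2 and 0 to 1 without 1 library by limma, with 1121 to 1372 at an unadjusted p under 0.05. The replicate numbers name animals, and the labels give no pairing between the breeds. Deviations of same-numbered libraries correlated at 0.11, -0.08 and -0.16, and those of libraries with unlike numbers at -0.15 to 0.23. With 3 libraries a group these values cannot decide on pairing by themselves. With a replicate block 70, 1250 and 21 passed, and YTHDC1 and ADARB1 missed the threshold after rescaling (limma adjusted p = 0.0724 and 0.0590).

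The log2 difference in circRNA sum, -0.57, was -0.081 set against the protein-coding sum, -0.063 with the gene table's factor and -0.61 to -0.50 without 1 library. The promoter to inhibitor difference, -0.21, ranged from -0.38 to -0.12 without 1 library. As deposited, ILF2 turned to 0.034 with an equal sum and 0.027 with quantile scaling. ADAR turned to 0.19 and 0.21 under those settings and to 0.0095 without domestic pig 2 (-0.55 to 0.0095 without 1 library). ADARB1 turned to -0.21 without domestic pig 1 and -0.13 without wild boar 3 (-0.21 to 0.31). After rescaling ILF2 turned to -0.066 without domestic pig 2 (-0.066 to 0.13). The main QKI circRNA turned to 0.17 after rescaling of circRNAs, the third to -0.17 without domestic pig 3 (-0.17 to 0.90), the MBNL1 circRNA to 0.31 and 0.067 without domestic pig 1 or wild boar 3 (-1.08 to 0.31), and the DHX9 circRNA to -0.032 without wild boar 1 (-0.032 to 0.78). None of these passed. Of the other settings of named genes and circRNAs, 301 kept direction and outcome (passing or not), 63 lost the call and 7 gained it. The equal-sum and quantile fits of a gene are the same fit under both scalings and were counted under each.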
